A study of Saccharomyces cerevisiae with 12 samples.

Results

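The sterol genes of *S. cerevisiae* examined here are 33 genes for the mevalonate pathway, the synthesis of ergosterol, and the esterification, transport and transcriptional control of sterols. They were chosen by gene symbol. All 33 were measured, each by 1 probe set, among 5449 named genes and 5667 features (named genes plus probe sets with no gene listed) on Affymetrix Yeast Genome 2.0 arrays. RNA came from BY4741, a haploid laboratory strain, and from BY4741 lacking *COM2*, the gene of a transcription factor related to Msn2 and Msn4. Both strains are *MAT*a with the alleles *his3*Δ1, *leu2*Δ0, *met15*Δ0 and *ura3*Δ0. Exponential cells were moved to fresh minimal medium (MMB) at pH 3.5, which held methionine, leucine, histidine and uracil, and were collected after 60 min either without addition (control) or with 0.5 mM SO2. Each of the 4 groups has 3 arrays, which the labels call biological replicates. The deletion strain came from a strain collection, and the number of its clones is not given in the sources used here.

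Ergosterol is the main sterol of the yeast plasma membrane. Its carbon comes from acetyl-CoA, which the mevalonate pathway turns into farnesyl pyrophosphate, a precursor shared with dolichol, ubiquinone and protein prenylation. Squalene made from it is oxidized, closed to lanosterol, stripped of methyl groups to zymosterol, and altered in its ring and side chain to ergosterol. Several of these steps use molecular oxygen, and some use heme or electrons carried by cytochrome b5. HMG-CoA reductase is a known control point, and the zinc cluster proteins Upc2 and Ecm22 activate many genes of the pathway in yeast. Excess sterol is stored as steryl esters in lipid droplets.

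The labels of strain and mating type were checked first. *COM2* had an intensity of 2368 to 3679.9 on the 6 BY4741 arrays and 9.35 to 20.3 on the 6 *com2*Δ arrays. *LEU2*, *URA3* and *MET17* (*MET15*), deleted in both strains, reached at most 152.5, which gives a level that absent transcripts can show. The a-cell genes *STE2*, *MFA1*, *MFA2* and *BAR1* lay at 3079 or more on every array, the α-factor genes at 228 or less, and the α-cell receptor gene *STE3* at 166 to 1084. Median intensities ran from 1673 to 1868. In each group 1 array lay apart from its replicates: replicate 3 of both control groups and replicate 2 of both groups with SO2. On replicate 3 of the *com2*Δ control, 24 of the 33 sterol genes were below both other replicates, against 3 to 18 on the other arrays. Their median log2 deviation there was −0.16, against −0.02 over all features. The share of all features below both other replicates was not counted.

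The sterol genes did not move as a block in BY4741 cells with SO2. *ERG8* rose, and *HMG1*, *ERG28*, *ERG3* and *ARE2* fell, where a gene was called from limma if it reached 2-fold with p below 0.05 and a false discovery rate below 10%. That is 3.03% of the 33 genes called higher and 12.1% called lower, against 10.5% and 8.36% of all 5667 features. With an adjusted p under 0.05 and no fold limit, 5 were higher and 11 lower (15.2% and 33.3%, against 30.0% and 29.6% of all features), and in the same numbers of genes the arrays with SO2 all lay above or all below the controls (31.7% and 31.1% of all features). The median log2 fold change of the 33 genes was −0.06, and that of all features 0.00. Negative values were found in 21 of them and positive ones in 12 (63.6% negative, against 50.0% of all features). Lower intensity can mean less RNA per cell or fewer cells with the transcript, which cannot be told apart in whole cultures.

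The same exposure left no sterol gene past 2-fold in *com2*Δ cells, against 3.14% of all features called higher and 2.74% called lower. Of the log2 fold changes, 26 were negative and 7 positive (78.8% negative, against 48.2% of all features). By an adjusted p under 0.05 alone (limma), 14 of the 33 genes were lower and none was higher (42.4%, against 14.9% of all features lower and 14.0% higher). At an unadjusted p under 0.05, 17 were lower (51.5%) and none higher, against 20.9% and 21.0% of all features. In 17 genes (51.5%) all 3 arrays with SO2 lay below the 3 control arrays, and in 2 (6.06%) they lay above, against 23.1% and 24.1% of all features. The median log2 fold change was −0.29 over the 33 genes and 0.01 over all features. The count of 14 was 8 when replicate 1 or 2 of the *com2*Δ control or replicate 1 of the mutant with SO2 was left out, and 9 when replicate 3 of the latter was. It was 31 with array weights (26 lower and 5 higher), whose estimation reported premature convergence. Without replicate 3 of the *com2*Δ control it was 13, all lower. The call at 2-fold was also reached by *ERG3* without this array (−1.01 on the log2 scale) and when replicate 2 of the mutant with SO2 was left out (−1.09).

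**Figure D1:**
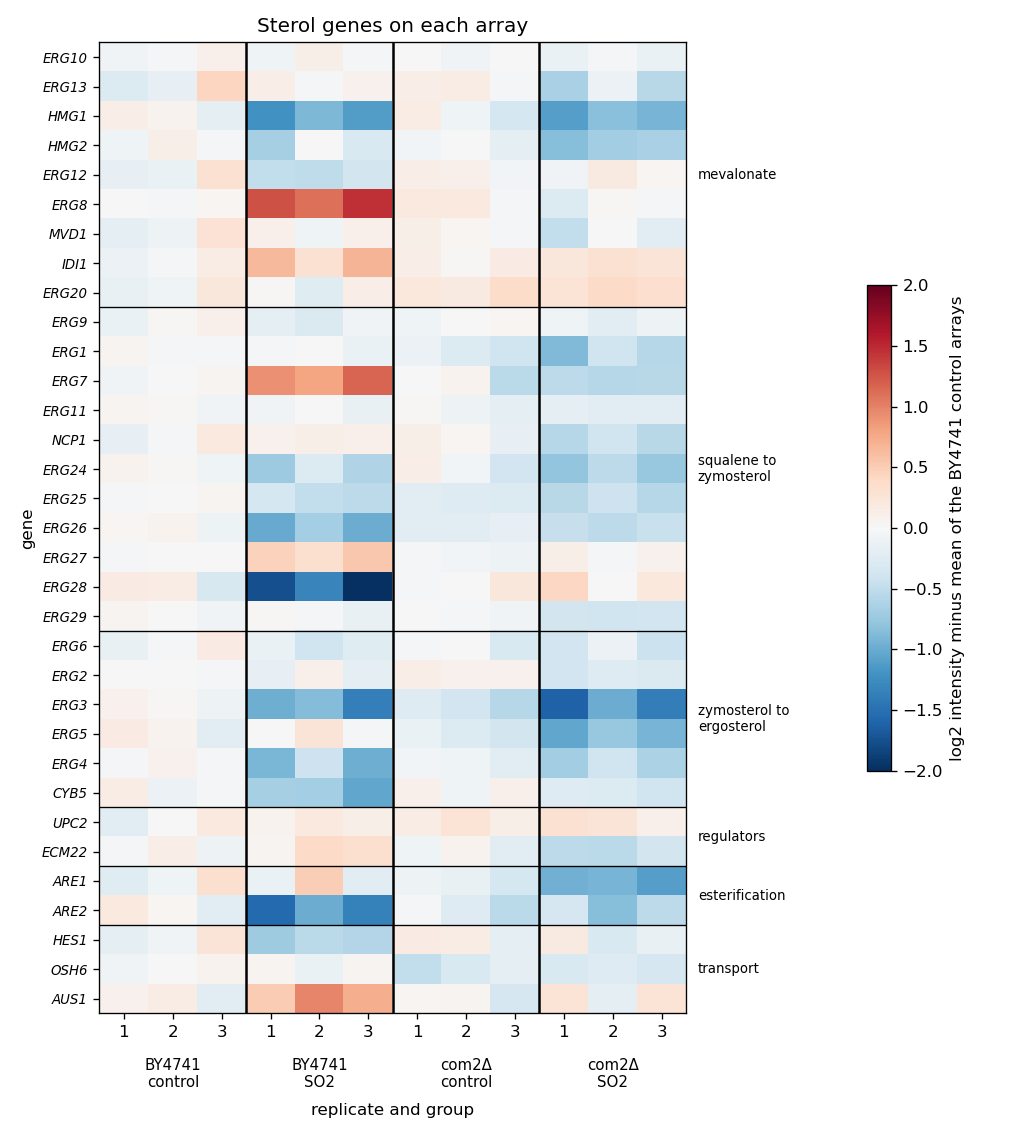
Log2 intensity of the 33 sterol genes (rows, in pathway order) on the 12 arrays (columns), minus the gene's mean over the 3 BY4741 control arrays; red is higher and blue is lower. *ERG8* and *ERG7* are red and *ERG28* and *ARE2* dark blue on the BY4741 arrays with SO2, while *HMG1* and *ERG3* are blue with SO2 in both strains.

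The 9 genes of the mevalonate pathway showed changes in opposite directions at different steps in BY4741 cells. *HMG1*, the main HMG-CoA reductase, had intensities of 4985, 4762 and 3962 on the BY4741 control arrays and of 1956, 2446 and 2085 with SO2. Those of the mutant were 5059.7, 4279.8 and 3583 without and 2112, 2552 and 2399.5 with SO2. In both strains every array with SO2 was below every control array. The log2 fold change was −1.08 (standard error, SE, 0.15, adjusted p = 7.73e-05 from limma) in BY4741 and −0.86 (SE 0.15, adjusted p = 0.00147) in *com2*Δ cells, where it stayed under 2-fold. The difference of these responses, 0.22 with an SE of 0.21, did not pass the test (adjusted p = 0.413).

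*HMG2*, the second isozyme of HMG-CoA reductase, differed less clearly. It had 2935, 3370.2 and 3046 in BY4741 control cells and 1953, 3139 and 2523 with SO2, groups that overlap (log2 fold change −0.32, adjusted p = 0.086). The mutant had 2982, 3108 and 2716 without and 1717, 1925 and 1982 with SO2, and these groups do not overlap. There the log2 fold change was −0.65 (SE 0.15, adjusted p = 0.00806), again under 2-fold, and the difference between the strains' responses was −0.33 (adjusted p = 0.229).

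*ERG8*, the phosphomevalonate kinase, alone among the 33 genes was called higher with SO2. Its intensities were 3847, 3780.4 and 3955 in BY4741 control cells and 9367, 8255 and 10677 with SO2, a 2.43-fold increase (log2 fold change 1.28, SE 0.12, adjusted p = 5.21e-06). Those of *com2*Δ cells were 4428, 4406 and 3745 without and 3203, 3927 and 3777 with SO2. The mutant groups overlap, at a log2 fold change −0.21 (adjusted p = 0.214). The difference of the responses, *com2*Δ minus BY4741, was −1.49 (SE 0.17, adjusted p = 8.12e-05).

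The neighbouring enzymes did not follow *ERG8*. *ERG12*, the mevalonate kinase that makes its substrate, lay at 1991 to 2752 in BY4741 control cells and at 1563 to 1732 with SO2 (log2 fold change −0.45, adjusted p = 0.00999, under 2-fold). For *MVD1*, the decarboxylase that uses its product, the value was 0.04 on the log2 scale (SE 0.15). *IDI1*, the isopentenyl diphosphate isomerase, was higher on every BY4741 array with SO2, at 5786 to 7472 against 4318 to 5214 (log2 fold change 0.54, SE 0.11, adjusted p = 0.00164, under 2-fold). The remaining genes of this branch had no adjusted p under 0.05 in BY4741 cells, with log2 fold changes −0.0043 for the thiolase gene *ERG10*, 0.07 for the HMG-CoA synthase gene *ERG13* and −0.03 for the farnesyl pyrophosphate synthase gene *ERG20*. Of these, *ERG13* was lower in *com2*Δ cells with SO2 (2955 to 4261, against 4565 to 5113, log2 fold change −0.52, adjusted p = 0.0496, under 2-fold). Its responses in the strains did not pass the test of the difference (−0.59, adjusted p = 0.0806).

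**Figure D2:**
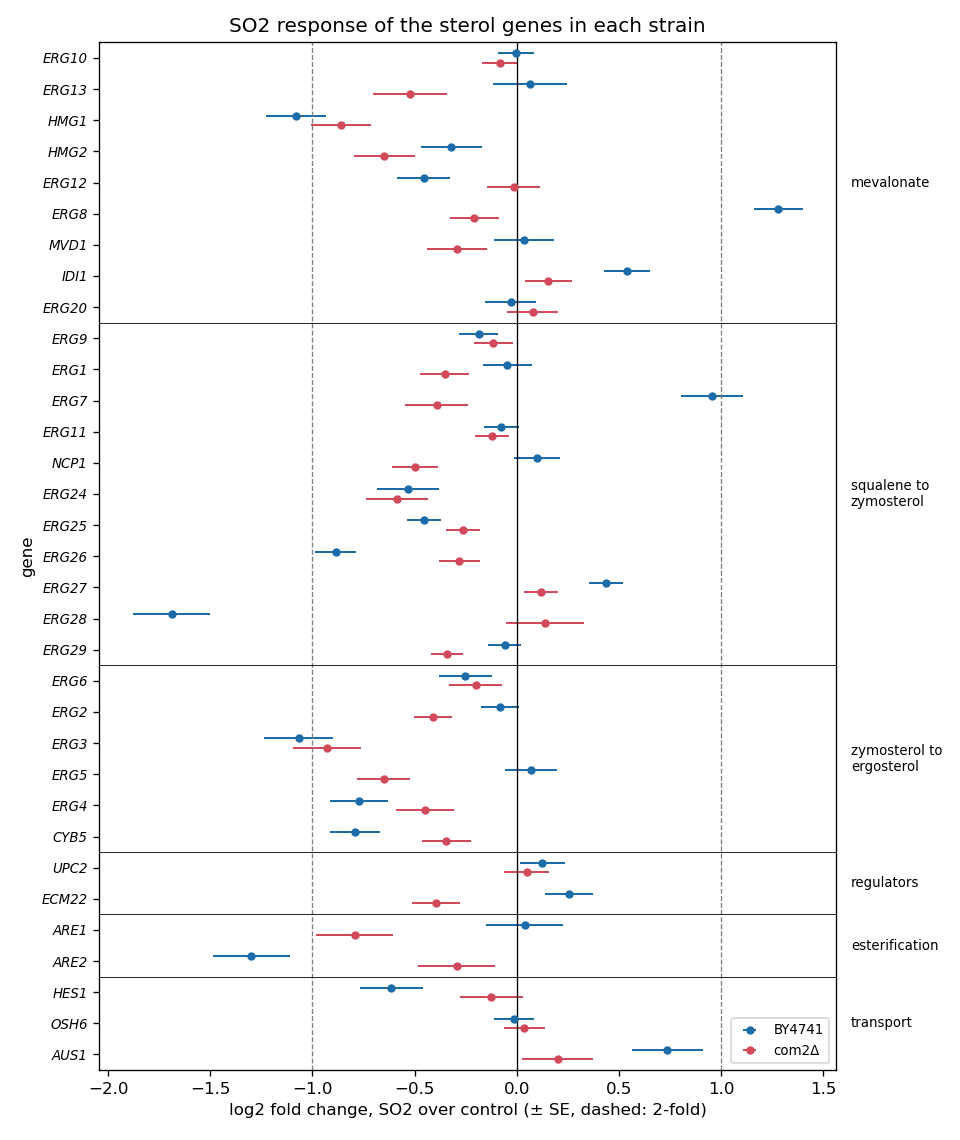
Log2 fold change with SO2 (x axis, mean ± standard error from limma) of each of the 33 sterol genes (y axis, in pathway order), in BY4741 cells in blue and *com2*Δ cells in red; dashed lines mark 2-fold. Blue points spread from −1.69 for *ERG28* to 1.28 for *ERG8*, and red points lie between −0.93 and 0.20.

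Between squalene and zymosterol, 11 genes were measured, and those with the widest differences act at the ring closure and at the removal of methyl groups. *ERG7*, the lanosterol synthase, had 3506, 3722 and 3829.9 in BY4741 control cells and 6958, 6358 and 8236 with SO2, with no overlap. Its log2 fold change 0.96 (SE 0.15, adjusted p = 0.000247) was just under the 2-fold limit, and it was 1.04 and called without replicate 2 of the BY4741 cells with SO2. The intensities of the mutant were 3693, 3885 and 2529.8 without and 2571, 2488 and 2509 with SO2. There the groups overlap through replicate 3 of the control, and the log2 fold change was −0.39 (adjusted p = 0.0742). The difference of the responses was called, at −1.35 (SE 0.22, adjusted p = 0.000643).

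*ERG28* encodes a scaffold of the endoplasmic reticulum that holds the enzymes of methyl removal together. It fell in BY4741 cells, from 5469, 5407 and 3881 to 1435, 1953 and 1220.1, a 3.23-fold decrease (log2 fold change −1.69, SE 0.19, adjusted p = 1.98e-05). The mutant had 4794, 4866 and 5689 without and 6483, 4826 and 5650.1 with SO2, at a log2 fold change 0.14 (adjusted p = 0.632). Replicate 3 of the BY4741 control was the lowest of the 6 control arrays, and the groups of BY4741 still do not overlap. The difference of the responses was 1.83 (SE 0.27, adjusted p = 0.000389), the widest of the 33 genes in absolute size.

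The enzymes that Erg28 holds together differed from it and from each other in BY4741 cells. *ERG26*, the sterol decarboxylase, was lower, at 3157 to 3966 against 5898 to 6611 (log2 fold change −0.89, SE 0.10, adjusted p = 2.19e-05, under 2-fold). *ERG25*, the methyl sterol oxidase, had a log2 fold change −0.45 and *ERG27*, the keto reductase, 0.44 (adjusted p = 0.000677 and 0.00087), and neither overlapped with the controls. In the mutant *ERG26* had −0.28, *ERG25* −0.26 and *ERG27* 0.12 (adjusted p = 0.0564, 0.0353 and 0.314), and none of them overlapped with the controls. The difference of the responses had an adjusted p under 0.05 for *ERG26* (0.61, adjusted p = 0.00571) and *ERG27* (−0.32, adjusted p = 0.0462), but not for *ERG25* (0.19, adjusted p = 0.206).

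*ERG1* and *ERG11*, which act at some of the oxygen-dependent steps, were not called in either strain. *ERG1*, the squalene epoxidase, had 11865, 11221 and 11262 without and 11233, 11567 and 10494 with SO2 (log2 fold change −0.05, adjusted p = 0.76). The mutant had 10515, 9490.2 and 8695 without and 6238, 8684 and 7683 with SO2, where the groups are separated by a narrow margin (log2 fold change −0.35, adjusted p = 0.0488). Between the strains the responses of *ERG1* did not pass the test of the difference (−0.31, adjusted p = 0.164). *ERG11*, the heme enzyme that demethylates lanosterol, lay in a narrow range. Its 12 intensities ran from 14137 to 17127, with 17127, 16707 and 15606 in BY4741 control cells, 15670.0, 16478 and 14801 with SO2, 16718, 15283 and 14604 in *com2*Δ control cells and 14431, 14137 and 14236 with SO2. Its log2 fold changes were −0.07 and −0.12, and neither had an adjusted p under 0.05 (0.47 and 0.318), although the mutant groups do not overlap.

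*NCP1*, the reductase that passes electrons to Erg11, was lower with SO2 in *com2*Δ cells alone by the adjusted p, at 5509 to 6217 against 7252 to 8852 (log2 fold change −0.50, adjusted p = 0.00704) and 0.10 in BY4741 cells. The difference of the responses was −0.60 (SE 0.16, adjusted p = 0.0111). *ERG24*, the sterol reductase after Erg11, was lower in both strains (−0.53 and −0.59, adjusted p = 0.0103 and 0.0142), with a difference of −0.05 (SE 0.22, adjusted p = 0.851). *ERG29*, needed for ergosterol synthesis at the methyl sterol step, had a log2 fold change −0.06 in BY4741 and −0.34 (adjusted p = 0.00813) in *com2*Δ cells. Its difference of −0.28 did not pass (adjusted p = 0.0603). *ERG9*, the squalene synthase, had −0.19 and −0.12 with adjusted p of 0.111 and 0.399.

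**Figure D3:**
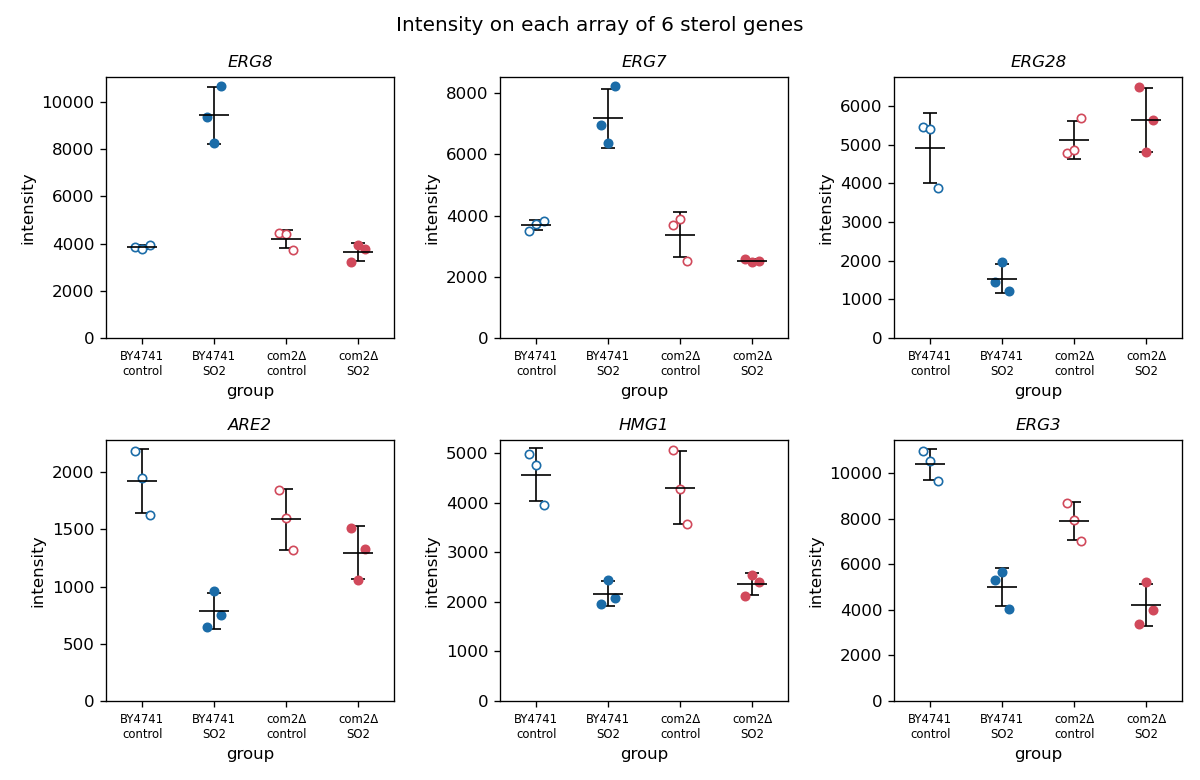
Intensity (y axis, linear) of 6 sterol genes on each array, by group (x axis), with open points for control and filled points for SO2; bars give the mean ± SD of 3 arrays. *ERG8* and *ERG7* are high, and *ERG28* and *ARE2* low, on the BY4741 arrays with SO2, whereas *HMG1* and *ERG3* are lower with SO2 in both strains.

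From zymosterol to ergosterol, 6 genes were measured, and all 6 had a negative log2 fold change in *com2*Δ cells, against 48.2% of all features. In 4 of them (66.7%, against 14.9% of all features) the adjusted p was under 0.05. In BY4741 cells 5 of the 6 were negative as well (83.3%, against 50.0% of all features). There 3 were lower with an adjusted p under 0.05 (50.0%, against 29.6% of all features). *ERG3*, a sterol desaturase, fell in BY4741 cells, from 10991, 10542 and 9672 to 5298, 5669 and 4048 (log2 fold change −1.07, SE 0.17, adjusted p = 0.000217). Without replicate 3 of the BY4741 cells with SO2 the value was −0.92, under 2-fold. The mutant had 8721, 7947 and 7031 without and 3403, 5209 and 3996 with SO2 (log2 fold change −0.93, adjusted p = 0.00205). The groups do not overlap in either strain, and the difference of the responses was 0.14 (SE 0.24, adjusted p = 0.655).

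*ERG5*, which desaturates the side chain, was lower only in the mutant by the adjusted p. It had 4817 to 6302 without and 5483 to 6705 with SO2 in BY4741 cells, and 4352 to 5126 without and 2752 to 3323 with SO2 in *com2*Δ cells. The log2 fold changes were 0.07 and −0.65, and their difference was −0.72 (SE 0.18, adjusted p = 0.00811, under 2-fold). *ERG4*, the reductase of the last step, and *CYB5*, the cytochrome b5 that carries electrons to several enzymes of the pathway, were lower in BY4741 cells. They had log2 fold changes −0.77 and −0.79 in BY4741 cells and of −0.45 and −0.34 in *com2*Δ cells. In the mutant *ERG4* was lower as well (adjusted p = 0.0358), while the adjusted p of *CYB5* was 0.0526. The differences had an adjusted p of 0.213 and 0.0522. *ERG2*, the sterol isomerase, had −0.08 in BY4741 and −0.41 in the mutant, with a difference of −0.33 that did not pass (adjusted p = 0.0596). *ERG6*, the sterol methyltransferase, had −0.25 and −0.20.

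Neither activator gene was called with SO2 in either strain. *UPC2* had 1948, 2259.8 and 2579 in BY4741 control cells and 2350.3, 2567 and 2439 with SO2, and in *com2*Δ cells 2479, 2709 and 2425 without and 2779.9, 2679 and 2419 with it. These groups overlap in both strains, at log2 fold changes 0.12 and 0.05. *ECM22* had 1363, 1524 and 1300.0 in BY4741 control cells and 1449, 1822 and 1744 with SO2 (log2 fold change 0.26, adjusted p = 0.0795). The mutant had 1314, 1466 and 1193 without and 972, 961 and 1084 with SO2, with no overlap (log2 fold change −0.39, SE 0.12, adjusted p = 0.0268, under 2-fold). The difference of its responses was −0.65 (SE 0.17, adjusted p = 0.00875).

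The acyl-CoA:sterol acyltransferases Are1 and Are2, which make steryl esters, showed opposite strain patterns. *ARE2* fell in BY4741 cells, from 2185, 1953 and 1625 to 647, 959 and 749, a 2.46-fold decrease (log2 fold change −1.30, SE 0.19, adjusted p = 0.000126). The mutant had 1849, 1603 and 1316 without and 1512, 1055 and 1327 with SO2, groups that overlap. *ARE1* had 958, 1067 and 1409 in BY4741 control cells and 1027, 1581 and 964 with SO2, which overlap as well.

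For *ARE1* the mutant had 1053, 1017 and 888 without and 583, 593 and 527 with SO2, with no overlap (log2 fold change −0.79, SE 0.19, adjusted p = 0.009, under 2-fold). The differences of the responses had opposite signs, at 1.01 for *ARE2* (SE 0.27, adjusted p = 0.0106) and −0.83 for *ARE1* (SE 0.27, adjusted p = 0.0255). That of *ARE2* was at the 2-fold limit. It was under it, at 0.88 to 0.99, without replicate 1 or 2 of the BY4741 control, replicate 1 or 3 of the BY4741 cells with SO2, replicate 3 of the *com2*Δ control or replicate 1 or 3 of the mutant with SO2, and with 16 added to each intensity.

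Of the 3 genes of sterol and lipid transport, *AUS1*, an ABC transporter that takes up sterol when oxygen is lacking, was higher with SO2 in BY4741 cells, at 3186 to 4405 against 1913 to 2492 (log2 fold change 0.74, SE 0.17, adjusted p = 0.00349, under 2-fold). The mutant had a log2 fold change 0.20 (adjusted p = 0.427), and the difference of the responses did not pass (−0.54, adjusted p = 0.0972). *HES1*, of the oxysterol-binding protein family, lay at 116 to 228 on all arrays, near the level of 152.5 that a deleted gene reached. Its log2 fold change −0.61 in BY4741 cells (adjusted p = 0.0053) therefore concerns a dim probe set. *OSH6*, of the same family and known to carry phosphatidylserine, had −0.01 and 0.04.

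Without SO2, no sterol gene was called between the strains in limma, at 2-fold or with an adjusted p under 0.05, against 0.706% and 1.16% of all features. At an unadjusted p under 0.05, 3 were lower in *com2*Δ cells, *ERG3*, *ERG25* and *OSH6* (9.09%, against 7.66% of all features), and none was higher (5.93% of all features). All 3 mutant arrays lay below the 3 BY4741 arrays in 7 genes (21.2%) and above them in 1 (3.03%), against 10.1% and 7.39% of all features. *ERG3* (7031 to 8721 against 9672 to 10991, log2 fold change −0.40, adjusted p = 0.314), *ERG25* (−0.25, adjusted p = 0.195) and *OSH6* (−0.34, adjusted p = 0.16) were among the 7. Replicate 3 of each control group lay apart from the others. With array weights, whose estimation reported premature convergence, 17 genes had an adjusted p under 0.05 (7 higher and 10 lower). Without the 4 arrays that lay apart 5 had (2 higher and 3 lower).

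With SO2, *ERG28* was 3.72-fold higher in *com2*Δ than in BY4741 cells (log2 fold change 1.90, SE 0.19, adjusted p = 1.02e-05). *ERG7* was 2.83-fold lower (−1.50, adjusted p = 1.13e-05), *ERG8* 2.59-fold lower (−1.37, adjusted p = 4.02e-06) and *ARE1* 2.05-fold lower (−1.03, adjusted p = 0.000633). These 4 are 12.1% of the sterol genes, against 17.7% of all features called in either direction. The *ARE1* call ended without replicate 2 of the BY4741 cells with SO2 (−0.81) and when replicate 3 of the mutant with SO2 was left out (−0.98). It also ended with quantile normalization, median centring or array weights (−0.96, −0.95 and −0.97), and without the 4 arrays that lay apart (−0.84). *ERG5* came next below the limit, at −0.98 (SE 0.13, adjusted p = 6.44e-05). With an adjusted p under 0.05 and no fold limit, 7 genes were higher and 14 lower (21.2% and 42.4%, against 29.9% and 32.4%), and as many did not overlap (32.0% and 34.8% of all features). This comparison uses the same arrays with SO2 as the responses of each strain, so its values are not a separate measurement.

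The test of the difference of the responses called 4 of the 33 genes, *ERG28* and *ARE2* upward and *ERG8* and *ERG7* downward. That is 6.06% in each direction, against 8.17% upward and 9.30% downward of all features. With an adjusted p under 0.05 and no fold limit, 3 were upward and 7 downward (9.09% and 21.2%, against 21.8% and 23.1%). The further genes were *ERG26* upward and *NCP1*, *ERG27*, *ERG5*, *ECM22* and *ARE1* downward. The split was 6 and 6 with median centring and 5 and 6 with quantile normalization. Other alternatives kept more genes downward. It was 4 and 9 without the 25% dimmest features and 3 and 8 with trended robust variances. It was 4 and 13 without the 4 arrays that lay apart, and 8 and 15 with array weights.

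**Figure D4:**
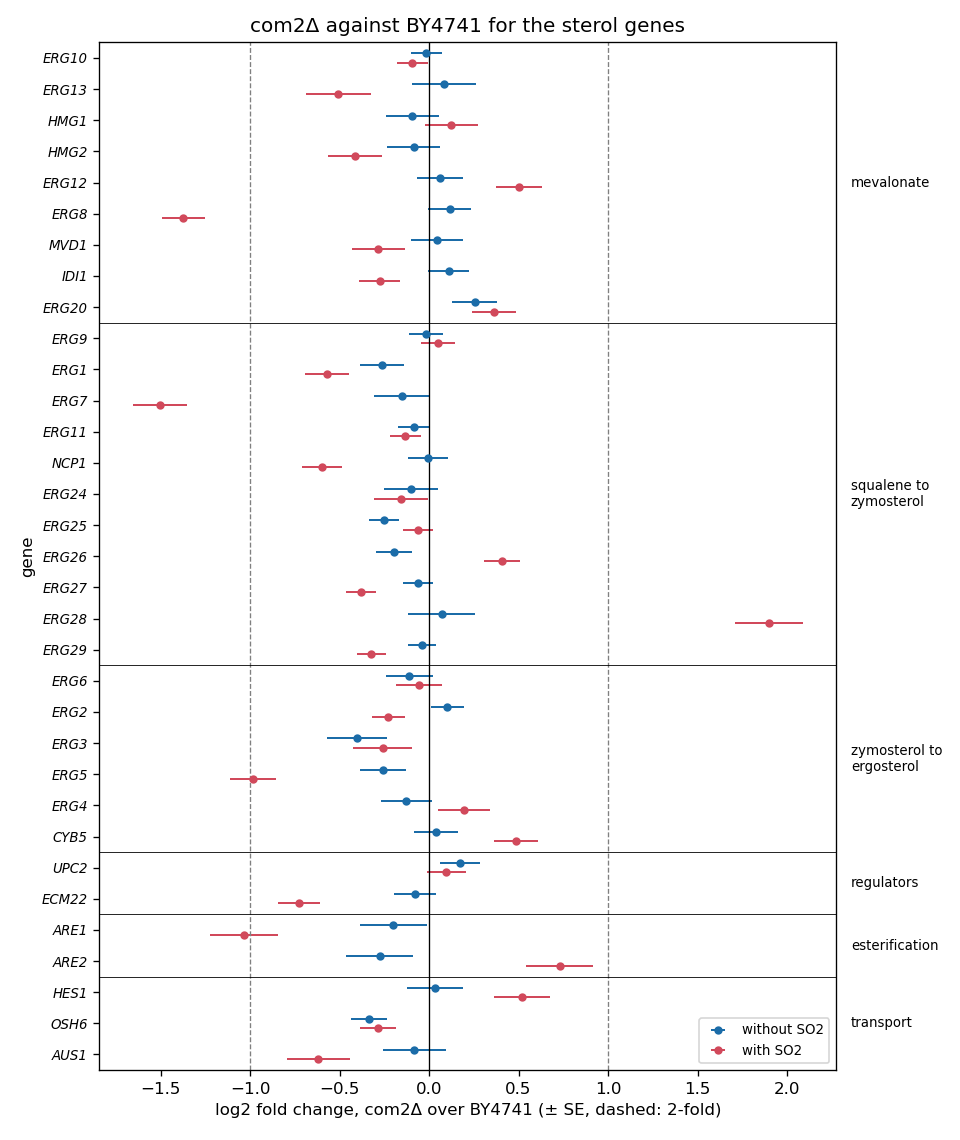
Log2 fold change of *com2*Δ over BY4741 cells (x axis, mean ± standard error from limma) of each of the 33 sterol genes (y axis, in pathway order), without SO2 in blue and with SO2 in red; dashed lines mark 2-fold. Blue points lie between −0.40 and 0.26, and red points reach from −1.50 for *ERG7* to 1.90 for *ERG28*.

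Further genes around the pathway were counted in 3 lists from textbook knowledge, none of them members of the 33. Of 25 genes for the transport, storage and breakdown of sterols and for partners of the enzymes, 2 rose and 1 fell in BY4741 cells (8.0% and 4.0%, against 10.5% and 8.36% of all features), and none rose and 2 fell in *com2*Δ cells (8.0%, against 2.74% called lower). *YEH1*, a steryl ester hydrolase, fell in both strains, from 962 to 1198 down to 335 to 479 in BY4741 and from 1021 to 1439 down to 414 to 563 in *com2*Δ cells. The sterol-binding secreted protein gene *PRY2* rose in BY4741 cells (log2 fold change 1.78) and its relative *PRY1* fell in *com2*Δ cells (−1.11). *SIP3*, of a family that moves sterols at membrane contact sites, rose in BY4741 cells (1.37) and had −0.35 in *com2*Δ cells. With an adjusted p under 0.05 and no fold limit, 4 of the 25 were higher and 12 lower in BY4741 cells (16.0% and 48.0%, against 30.0% and 29.6% of all features), and in *com2*Δ cells none was higher and 11 were lower. The latter is 44.0%, against 14.9% of all features.

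Of 10 genes that use isoprenoid precursors for other products, none rose and 2 fell in BY4741 cells (20.0%, against 8.36% of all features called lower). These were *SRT1* and *NUS1*, which act in dolichol synthesis (log2 fold changes −1.46 and −1.37). *SRT1* lay at 251 to 320 in BY4741 control cells and at 90.5 to 120 with SO2. The latter range is below the level of 152.5 that a deleted gene reached, so the values of *SRT1* concern a dim probe set. With an adjusted p under 0.05 and no fold limit, 6 of the 10 were higher and the same 2 lower (60.0% and 20.0%, against 30.0% and 29.6% of all features), and the median log2 fold change of the list was 0.32. No gene of this list was called by limma in *com2*Δ cells, 2 being higher and none lower with an adjusted or unadjusted p under 0.05 (20.0%, against 14.0% of all features higher by the adjusted p and 21.0% by the unadjusted p). The differences of the responses of *SRT1* and *NUS1* were 1.68 and 1.21. Of 12 genes of sterol uptake and hypoxic control, 1 rose and 2 fell in BY4741 cells (8.33% and 16.7%, against 10.5% and 8.36% of all features). *TIR2*, which encodes a cell wall mannoprotein, rose (1.96). *MOT3*, a repressor of hypoxic genes, fell (−1.16), as did the mannoprotein gene *TIR3* (−1.15), whose arrays overlap (254 to 1153 without and 216 to 333 with SO2). In *com2*Δ cells only the hypoxic repressor gene *ROX1* was called in this list, upward (8.33%, against 3.14% of all features called higher).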

How the data were processed

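RNA extracted with hot phenol was hybridized to 12 Affymetrix Yeast Genome 2.0 arrays. The values are linear intensities with a lowest value of 1, deposited by the authors for every probe set. The labels name only MAS5 for their processing. The paper's methods give MAS5 for detection calls, then dChip for invariant set normalization and model-based indices from perfect match probes alone, so the last step behind these values is not settled. Replicates were not pooled. The labelling kit and the number of arrays differ between the labels and the paper's methods.

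Of 5716 probe sets, 5498 name 1 gene, none names several and 218 name none in the platform annotation. For genes with several probe sets that of the highest mean log2 intensity was kept. Log2 intensities, with no further scaling or filter, were fitted with limma 3.58.1 in R 4.3.3 (1 mean per group, all 12 arrays, 8 residual and 3.24 prior degrees of freedom). Adjusted p-values are Benjamini-Hochberg values over all 5667 features. Folds were taken from the log2 fold change. The p-values rest on the spread between cultures within groups, pooled over the 4 groups and moderated by that of all features. The script was tested on simulated data. With 3 arrays per group, their number limits precision. Present calls, used in the paper, were not applied, and no sequence is shown.

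Values on every array are given for genes called in any of the 5 comparisons and for *HMG1*, *HMG2*, *ERG1*, *ERG11*, *UPC2* and *ECM22*. Of the further lists, genes called for SO2 in BY4741 or *com2*Δ cells are named. The genes, lists and tests were chosen with earlier results of these data known. Alternatives were quantile normalization or median centring, a constant of 16 before the logarithm, removal of the 25% dimmest features, the replicate number as a block, removal of each array in turn, a fit to only the 6 arrays compared, array weights, trended robust variances, the lower of several probe sets, and no fold limit. Leaving out together the 4 arrays farthest from their replicates was chosen after seeing the data. Python 3.11.15 (pandas 2.3.3, numpy 2.4.6, matplotlib 3.10.9) served for tables and plots.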

Additional observations from a re-analysis of the deposited data

Results flagged for a closer look

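For 4 sterol genes the response to SO2 differed between the strains by the test of the difference itself. On the log2 scale, *com2*Δ minus BY4741, it was −1.49 for *ERG8*, −1.35 for *ERG7*, 1.83 for *ERG28* and 1.01 for *ARE2*. That is 6.06% of the sterol genes in each direction, against 8.17% upward and 9.30% downward of all features. The difference for *ARE2* fell under 2-fold with several of the alternatives. Groups of 3 arrays are too small to test single arrays as outliers.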

How the results depend on the processing

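At 2-fold, 5, 0, 0, 4 and 4 genes were called for SO2 in BY4741, SO2 in *com2*Δ cells, the strains without SO2, the strains with SO2 and the difference of responses. Leaving out single arrays gave 4 to 6, 0 to 1, 0 to 0, 3 to 5 and 3 to 4. With an adjusted p under 0.05 and no fold limit the counts were 16, 14, 0, 21 and 10. Leaving out single arrays then gave 16 to 17, 8 to 15, 0 to 0, 16 to 22 and 8 to 13. With array weights 31 genes had such a p for SO2 in *com2*Δ cells, 17 for the strains without SO2 and 23 for the difference. The estimation of these weights reported premature convergence, so its counts serve only as an alternative. Without the 4 arrays farthest from their replicates, 2 genes were called at 2-fold in *com2*Δ cells, and 5 and 17 had such a p for the strains without SO2 and the difference. The causes of these shifts were not tested. Deviations from group means correlated at −0.31 to 0.47 between same-numbered arrays of different groups and at −0.54 to 0.44 between differently numbered ones. These ranges cannot settle whether the replicate numbers pair the cultures. With the replicate number as a block the 2-fold counts were 5, 0, 0, 4 and 4, and those by adjusted p alone 16, 12, 0, 20 and 10. No named value changed sign where it was called, and 7 of the 60 values of 12 named genes crossed the 2-fold limit under some alternative. *HES1* is among the 25% dimmest features. Detection calls for dim probe sets were not used here.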
